A study of Mus musculus with 8 samples.

Results

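The transcript levels of 10 genes of the cohesin machinery were examined in c-Kit-selected cells from the bone marrow of mice with an Smc3 deletion, a Flt3-ITD allele or both. These were the ring subunits Smc3, Smc1a and Rad21, the alternative subunits Stag1 and Stag2, the loader Nipbl, the regulators Pds5a, Pds5b and Cdca5, and the DNA-binding protein Ctcf. They were chosen by symbol for their known roles, though with earlier results of these data known, and all 10 were found among 23293 mouse genes. All 10 also had a mean of at least 1 FPKM (fragments per length of transcript, scaled to the fragments mapped in the library) over the 8 libraries, as did 10854 genes in all, which were tested.

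Cohesin is a ring of Smc1a, Smc3 and Rad21 that encircles DNA, holds sister chromatids together until anaphase and forms chromatin loops. Nipbl loads it, Pds5 proteins regulate its release and its stay on DNA, and bound Ctcf halts it at loop anchors. Mutations of cohesin genes recur in acute myeloid leukaemia, and in blood progenitors cohesin is known for its part in the balance of self-renewal and differentiation.

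Polyadenylated RNA was sequenced from 8 individual mice, 2 in each of 4 groups, with every mouse injected with PIpC. Bone marrow was taken 4 weeks later and its c-Kit (Cd117) cells were selected on magnetic beads. The Smc3 del/+ mice carried Mx1-cre and a single floxed Smc3 allele, and the Flt3-ITD mice carried Mx1-cre and an internal tandem duplication in the gene of the Flt3 receptor kinase. The combined group carried Mx1-cre, floxed Smc3 and Flt3-ITD. Its genotype is labelled Smc3 fl/del Flt3-ITD, while the sample titles call it heterozygous for Smc3. Controls had the genotype Smc3 fl/+ and no Mx1-cre, so each comparison with them also sets mice with the recombinase against mice without it. The Mx1 promoter that drives the recombinase responds to interferon and so to PIpC. The labels give neither the ages of the mice nor which part of Smc3 is removed.

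The number of mouse genes at 1 FPKM or more ranged from 10490 to 10843 per library, and replicates correlated at r = 0.981 in Smc3 del/+, 0.976 in Flt3-ITD, 0.932 in the combined group and 0.975 in controls, across genes that are not independent. Combined replicate 2 stood apart, with 11076 genes listed at 0 against 8878 to 9907 in the other 7 libraries. Kit, the gene used for selection, was detected in all libraries (37.4 to 60.1 FPKM), as were Cd34 and Ptprc. Of 9 genes listed as non-haematopoietic, only the liver gene Alb was at 0 in all libraries, and 3 were high enough to be tested. The 9 summed to 22.8 to 39.4 FPKM per library. The female transcript Xist was at 0.140 to 0.936 FPKM in Smc3 del/+ and Flt3-ITD libraries, against 499.8 to 657 FPKM in combined and control libraries. Genotype and sex thus cannot be told apart between Smc3 del/+ or Flt3-ITD and controls, nor between the combined group and Flt3-ITD, nor in the interaction of both alleles. Smc1a, which is X-linked, ranged from 156 to 189 FPKM in the 4 libraries with low Xist and from 156 to 189 FPKM in the 4 with high Xist. Stag2, also X-linked, ranged from 93.7 to 103 FPKM with low Xist and from 79.2 to 109 FPKM with high Xist.

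The targeted gene was examined first. Smc3, which forms an arm of the ring, had 135 and 133 FPKM in libraries labelled Smc3 del/+, 94.7 and 89.9 FPKM in Flt3-ITD, 103 and 136 FPKM in the combined group, and 119 and 112 FPKM in controls. Both libraries labelled Smc3 del/+ lay above both controls, and both Flt3-ITD libraries lay below all the others. Combined replicate 1 lay below both controls, while combined replicate 2 was the highest of the 8. The log2 fold change, here always on the scale of log2(FPKM + 1), was 0.21 ± 0.152 (SE) in Smc3 del/+ against control, with a 95% interval of -0.14 to 0.57 and a limma adjusted p of 1. The lower bound lay above -1. The direction turned with the scaling, since Smc3 had 148 and 129 FPKM in Smc3 del/+ and 141 and 161 FPKM in controls in the table that the authors normalized, a fold change of -0.13 (limma adjusted p = 0.551), and -0.15 with equal spike-in totals (limma adjusted p = 0.610). FPKM of the whole gene counts transcripts of a deleted allele with the others wherever they are still made. In bulk RNA, fewer cells of a type and less RNA per cell cannot be told apart.

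In the combined group against Flt3-ITD, the other comparison of libraries that differ in the labelled deletion, Smc3 had a log2 fold change of 0.36 ± 0.152 (SE), with an interval of 0.0011 to 0.71 and a limma adjusted p of 0.452. Without combined replicate 1 it was 0.55 (limma adjusted p = 0.00901), a value that rests on combined replicate 2 alone in that group. Without combined replicate 2 it was 0.16 (limma adjusted p = 0.581), and with the authors' normalization 0.18 (limma adjusted p = 0.652). Averaged over both Flt3 states in an additive model, the deletion-labelled libraries had a fold change of 0.29 ± 0.107 (SE; limma adjusted p = 0.901), against 0.03 in the normalized table (limma adjusted p = 0.906).

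For Flt3-ITD against control, the log2 fold change of Smc3 was -0.32 ± 0.152 (SE), with an interval of -0.67 to 0.04 and a limma adjusted p of 0.186. It was negative in all 17 alternative settings, from -0.86 to -0.28, and passed the threshold in 6 of them. All 6 also called more of all genes than the main fit, which called 1955. Counts included 4874 with the authors' normalization, 3466 with equal spike-in totals, 3955 with array weights and 3603 with only the 2 groups compared. The other passing settings left out combined replicate 1 or combined replicate 2, which have no part in this comparison. There the log2 fold change of Smc3 stayed at -0.32. In the combined group against control it was 0.04 ± 0.152 (limma adjusted p = 0.906). It was -0.65 in the normalized table (limma adjusted p = 0.0120), 0.23 without combined replicate 1 and -0.16 without combined replicate 2 (limma adjusted p = 0.123 and 0.267). Averaged over both Smc3 states the fold change with Flt3-ITD was -0.25 ± 0.107 (limma adjusted p = 0.125). Without combined replicate 2, the averaged value was -0.34 (limma adjusted p = 0.00486).

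**Figure D1:**
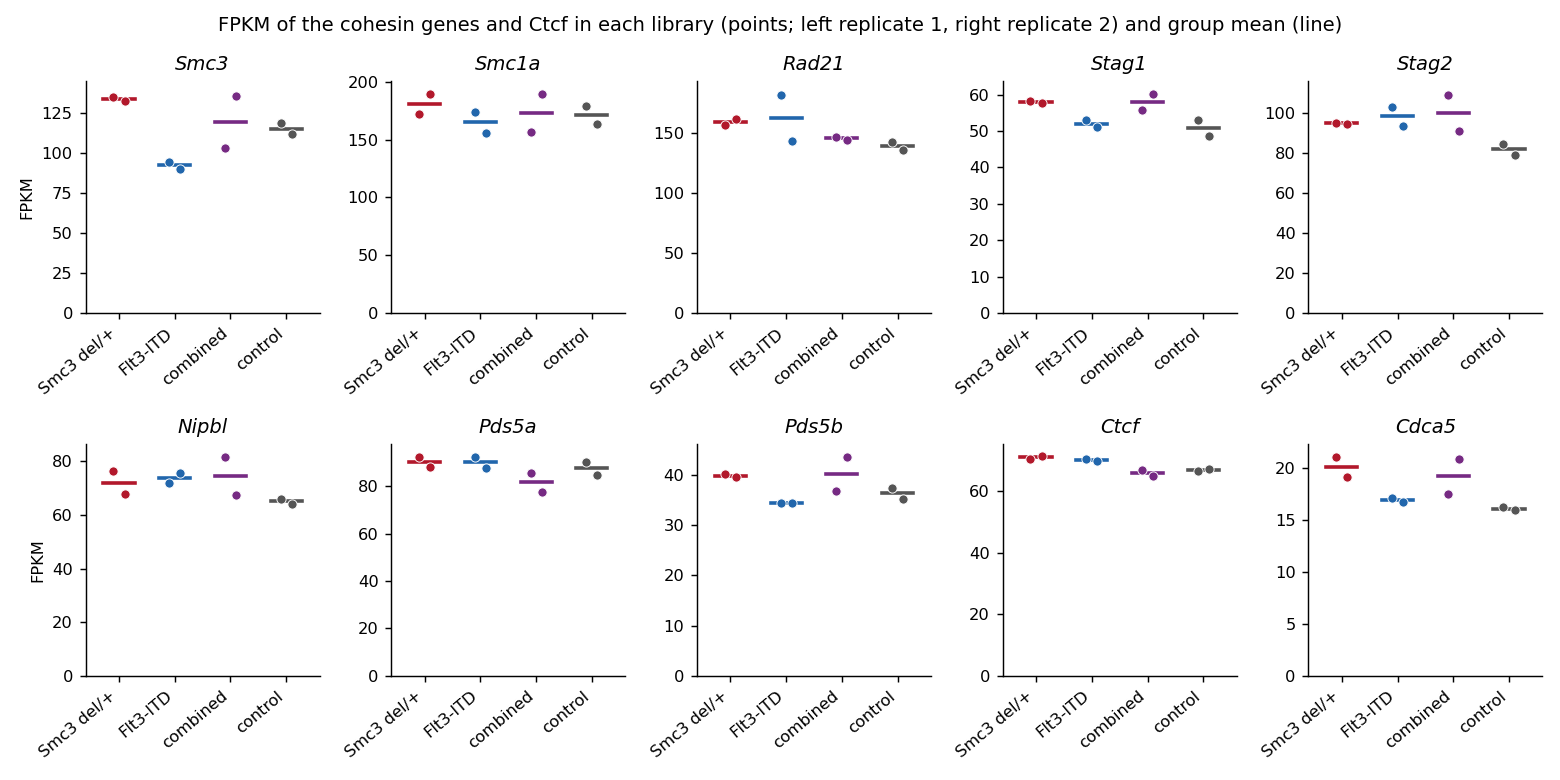
FPKM of the 10 genes in each library (points) and the mean of each group (line), with groups from left to right Smc3 del/+, Flt3-ITD, combined and control, and axes that start at 0. Smc3 lies between 89.9 and 94.7 FPKM in Flt3-ITD and at 112 FPKM or more in Smc3 del/+ and control libraries, while Ctcf stays between 64.8 and 71.5 FPKM in all 8.

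The promoter windows of Smc3 and of Pds5b and Cdca5, the members whose pattern over the libraries lay nearest to that of Smc3, are shown as RefSeq gives them for the GRCm38.p6 build, from 250 bases before to 50 bases after the start. They are chr19:53600146-53600445 for Smc3, chr5:150673577-150673876 for Pds5b and chr19:6084847-6085146 for Cdca5, all on the plus strand, and capitals mark motif matches.
Smc3: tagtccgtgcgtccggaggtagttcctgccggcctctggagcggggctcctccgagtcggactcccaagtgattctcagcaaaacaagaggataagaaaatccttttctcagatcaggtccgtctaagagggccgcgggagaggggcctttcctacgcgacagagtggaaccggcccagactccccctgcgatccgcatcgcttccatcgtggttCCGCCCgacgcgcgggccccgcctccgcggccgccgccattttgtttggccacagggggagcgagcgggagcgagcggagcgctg
Pds5b: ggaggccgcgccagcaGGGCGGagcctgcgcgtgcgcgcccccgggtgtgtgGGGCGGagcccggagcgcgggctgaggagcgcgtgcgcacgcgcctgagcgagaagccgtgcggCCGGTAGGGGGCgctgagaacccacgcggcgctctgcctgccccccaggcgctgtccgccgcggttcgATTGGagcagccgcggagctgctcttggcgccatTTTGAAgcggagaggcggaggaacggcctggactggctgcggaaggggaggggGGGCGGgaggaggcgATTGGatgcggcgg
Cdca5: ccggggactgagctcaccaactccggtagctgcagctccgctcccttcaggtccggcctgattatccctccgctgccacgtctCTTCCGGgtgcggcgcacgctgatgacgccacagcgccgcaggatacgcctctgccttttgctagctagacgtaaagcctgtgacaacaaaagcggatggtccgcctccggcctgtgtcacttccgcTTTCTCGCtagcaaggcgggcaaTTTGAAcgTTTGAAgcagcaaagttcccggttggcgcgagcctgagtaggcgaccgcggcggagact

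Windows were matched for 7 of the 10 genes and searched on both strands for 6 motifs, whose matches do not overlap in the 3 windows shown. Smc3 held 1 GC box (GGGCGG) at position -35 from the start, a motif found in 35.9% of 27025 windows of the same length. Pds5b held 3 GC boxes, 2 CCAAT boxes (CCAAT, 37.9% of windows), 1 match of TTTGAA, the cell cycle element CHR (18.1%), and at position -134 a match of the Ctcf core motif (8.56%). Cdca5 held TTTGAA at positions -17 and -9 and an ETS match (CCGGAAG, 9.12%) at -167. It also held, at -40, a match of TTTNNCGC (5.27%), the loose letters used here for E2F, with N as any base. The GC content was 65.0% for Smc3, 75.7% for Pds5b and 62.0% for Cdca5, against a median of 52.7% over all windows. A match describes these letters and is no sign of binding.

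Smc1a, the partner arm of Smc3, had 172 and 189 FPKM in Smc3 del/+, 174 and 156 FPKM in Flt3-ITD, 156 and 189 FPKM in the combined group, and 179 and 163 FPKM in controls. All 4 groups overlapped. Rad21, the kleisin that closes the ring and is cut by separase at anaphase, had 156 and 162 FPKM in Smc3 del/+, 181 and 143 FPKM in Flt3-ITD, 147 and 144 FPKM in the combined group, and 142 and 135 FPKM in controls. Each of the 3 other groups lay above both controls, by log2 fold changes of 0.19 ± 0.143 (SE) in Smc3 del/+ libraries, 0.21 ± 0.143 in those of Flt3-ITD and 0.07 ± 0.143 in the combined group, none of which passed (limma adjusted p of 1, 0.349 and 0.804). Smc1a was closer to control in each, at 0.08, -0.05 and 0.01 in the same order, with 95% intervals that all lay within -0.39 and 0.42.

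The alternative subunits Stag1 and Stag2 belong to the complex beside the ring and differ in which sites it occupies. Stag2 is the cohesin gene most often mutated in myeloid leukaemia. Stag1 had 58.1 and 57.7 FPKM in Smc3 del/+, 52.9 and 51.1 FPKM in Flt3-ITD, 55.7 and 60.1 FPKM in the combined group, and 52.9 and 48.6 FPKM in controls. Every library labelled with the deletion was above every other library. Stag2 had 95.4 and 94.8 FPKM in Smc3 del/+, 103 and 93.7 FPKM in Flt3-ITD, 109 and 91.3 FPKM in the combined group, and 84.7 and 79.2 FPKM in controls, so that the controls were the 2 lowest. The log2 fold change of Stag2 against control was 0.21 ± 0.135 (SE) in Smc3 del/+ libraries, 0.26 ± 0.135 in those of Flt3-ITD and 0.28 ± 0.135 in the combined group (limma adjusted p of 1, 0.216 and 0.214). The last of these was 0.41 without combined replicate 2 (limma adjusted p = 0.0277) and 0.16 without combined replicate 1 (limma adjusted p = 0.320). It was -0.41 in the normalized table (limma adjusted p = 0.106).

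Nipbl, which loads the ring onto DNA together with Mau2, had 76.4 and 67.7 FPKM in Smc3 del/+, 72.1 and 75.8 FPKM in Flt3-ITD, 81.6 and 67.3 FPKM in the combined group, and 65.9 and 64.1 FPKM in controls. Here too the controls were lowest, and the log2 fold changes of 0.14, 0.18 and 0.19 (SE 0.139 each) did not pass. Pds5a, which binds the ring and regulates its release, had 92.6 and 88.3 FPKM in Smc3 del/+, 92.6 and 87.9 FPKM in Flt3-ITD, 85.7 and 77.6 FPKM in the combined group, and 90.2 and 85.0 FPKM in controls. The combined libraries were below those of Flt3-ITD, by a fold change of -0.14 ± 0.12 on the log2 scale (SE; limma adjusted p = 0.632). Its paralogue Pds5b had 40.2 and 39.6 FPKM in Smc3 del/+, 34.5 and 34.4 FPKM in Flt3-ITD, 36.8 and 43.6 FPKM in the combined group, and 37.5 and 35.3 FPKM in controls. As for Smc3, both Smc3 del/+ libraries were above and both Flt3-ITD libraries below the controls.

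Cdca5, or sororin, which protects cohesin on replicated chromatids from release, had 21.0 and 19.1 FPKM in Smc3 del/+, 17.1 and 16.7 FPKM in Flt3-ITD, 17.6 and 20.9 FPKM in the combined group, and 16.2 and 16.0 FPKM in controls. As with Stag1, every library labelled with the deletion was above every other. Its log2 fold change in Smc3 del/+ against control, 0.30 ± 0.145 (SE, 95% interval -0.04 to 0.64), was the largest of the 10 in that comparison (limma adjusted p = 1). Ctcf had 70.6 and 71.5 FPKM in Smc3 del/+, 70.3 and 69.9 FPKM in Flt3-ITD, 66.8 and 64.8 FPKM in the combined group, and 66.4 and 67.2 FPKM in controls. Its highest library exceeded its lowest by a factor of 1.10 only, and 0.129% of the tested genes had a narrower range on the scale of FPKM + 1. Smc3 had the widest range among the 10, a factor of 1.51, with 25.0% of tested genes narrower, while the median gene had a factor of 1.81.

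No member passed the threshold of adjusted p = 0.05 in any of the 7 comparisons. In Smc3 del/+ against control, 0 of 10 passed, against 0.00921% of all tested genes. That share is 1 gene, which belongs to the list of sex markers and was lower. At an unadjusted p under 0.05 the counts were 0 of 10 and 4.55%. All 10 nevertheless had positive log2 fold changes, where 50.3% of all genes did. Their median was 0.17, against 0.0012 over all genes. In 8 of them, all but Smc1a and Pds5a, both Smc3 del/+ libraries were above both controls, and in none were both below, against 24.2% and 23.2% of all genes. All 22 genes of G2 and mitosis were positive there too, with a median of 0.20 and none past the threshold, and in 20 of them both Smc3 del/+ libraries were above both controls. Genes of B cells and of megakaryocytes and platelets had negative medians of -1.35 and -0.99 there, with 10 of 12 and 8 of 12 at an unadjusted p under 0.05 and 0 past the threshold in limma. The part of these lists in the values of the 10 was not tested. The direction depends on the scaling. In the table that the authors normalized the median of all genes shifted to -0.38 and that of the 10 to -0.19, and after scaling to equal spike-in totals they were -0.34 and -0.20. None of the 10 was then positive, although all 10 remained above the median of all genes.

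**Figure D2:**
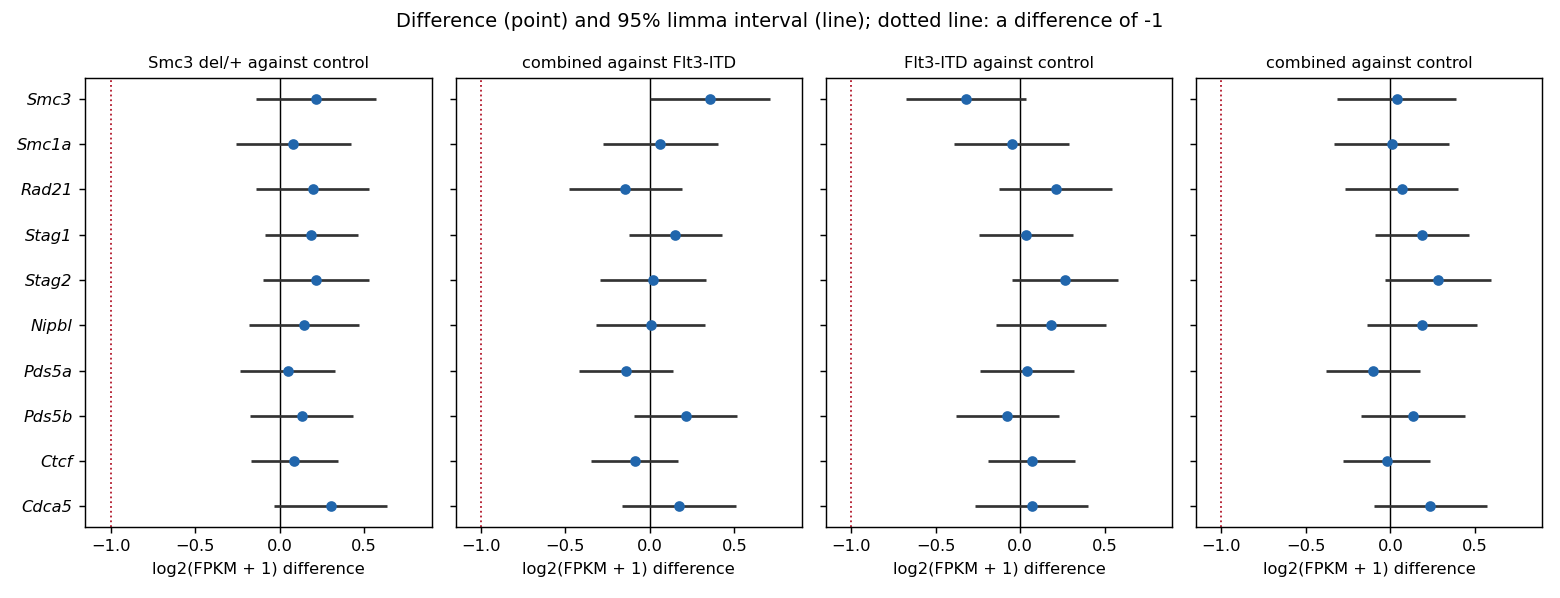
Log2 fold change of each gene (points) with its 95% limma interval (lines) in 4 comparisons, on the scale of log2(FPKM + 1), with a dotted line at -1. All 10 points lie right of 0 in Smc3 del/+ against control, no interval reaches -1, and Smc3 stands at -0.32 in Flt3-ITD against control and at 0.36 in the combined group against Flt3-ITD.

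In the combined group against Flt3-ITD, 0 of 10 passed, against 0.286% of all genes, and 7 of 10 were positive, against 50.1%. The median of the 10 was 0.04. Both combined libraries were above both Flt3-ITD libraries in 4 genes (Smc3, Stag1, Pds5b and Cdca5, against 17.1% of all genes) and below them in 2 (Pds5a and Ctcf, against 16.8%). Averaged over both Flt3 states, 0 of 10 and 0% of all genes passed in limma, and 2 of 10 (Smc3 and Cdca5) and 4.84% had an unadjusted p under 0.05. The 4 deletion-labelled libraries were above the 4 others without overlap in Stag1 and Cdca5, 2 of 10 genes, against 0.912% of all genes. Their averaged log2 fold changes were 0.17 ± 0.0829 and 0.24 ± 0.102 (SE; limma adjusted p = 0.901 each). With the authors' normalization both effects were negative (-0.10 and -0.03) and the separation was lost, with Stag1 at 48.8 and 44.6 FPKM in the combined group against 64.0 and 70.3 FPKM in controls. The difference of the deletion's effect between the Flt3 states, the interaction, passed in 0 of 10 and in 0.0369% of all genes.

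In Flt3-ITD against control, 0 of 10 passed, whereas 18% of all genes did, and 7 of 10 were positive, against 49.3%. Both Flt3-ITD libraries were above both controls in 5 genes (Rad21, Stag2, Nipbl, Ctcf and Cdca5, against 34.3% of all genes) and below them in 2 (Smc3 and Pds5b, against 35.2%). In the combined group against control, 0 of 10 passed, against 11.8% of all genes, and 8 were positive, against 49.5%. There, 5 genes (Rad21, Stag1, Stag2, Nipbl and Cdca5) were above the controls without overlap and none below, against 25.8% and 26.8%. Averaged over both Smc3 states, Flt3-ITD gave 0 of 10, against 23.8% of all genes. These comparisons with control share the control libraries. With the authors' normalization the median over all tested genes was -0.58 for Flt3-ITD and -0.67 for the combined group against control, all 10 members were negative in both, and 8 of 10 were above that median in each. There, 4 of 10 members passed as lower in Flt3-ITD (Smc3, Smc1a, Stag1 and Pds5b), where 43.2% of 11027 genes tested did, and 7 of 10 in the combined group (all but Stag2, Nipbl and Cdca5), where 53.1% did. Positive directions against control, such as those of Rad21, Stag2 and Nipbl, were thus not kept in the normalized table.

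Genes of the cell cycle and of other cell types also differed between the groups. Genes of S phase summed to 1959 and 2000 FPKM in Smc3 del/+, 1395 and 1298 FPKM in Flt3-ITD, 1166 and 1860 FPKM in the combined group, and 1999 and 1956 FPKM in controls, and 10 of 22 fell in Flt3-ITD against control (9.5% of all genes fell there). Ccne1 (cyclin E1) and Mcm2 (a subunit of the replicative helicase) had log2 fold changes of -1.76 and -0.78 there (limma adjusted p = 0.00166 and 0.0104). Smc3 and the S phase sum were both lowest in the Flt3-ITD libraries and combined replicate 1. Genes of G2 and mitosis summed to 2368 and 2407 FPKM, 2424 and 1979 FPKM, 1914 and 2446 FPKM, and in controls 2161 and 2051 FPKM, in the same order of groups. Erythroid genes summed to 1973 and 2111 FPKM in Smc3 del/+, 202 and 92.6 FPKM in Flt3-ITD, 235 and 668 FPKM in the combined group, and 2316 and 2226 FPKM in controls. Mature neutrophil genes held 21.2% and 19.5% of all mouse FPKM in Smc3 del/+ mice, 34.6% and 28.1% in Flt3-ITD mice, 26.2% and 26.5% in the combined group, and 14.4% and 15.1% in controls. B cell genes, none of the 12 at 0 in all libraries, summed to 93.7 and 112 FPKM in Smc3 del/+, 133 and 66.3 FPKM in Flt3-ITD, 1044 and 554 FPKM in the combined group, and 303 and 159 FPKM in controls. In the combined group against control, 10 of the 12 fell and 1 rose, where 6.38% and 5.41% of all genes did. Their median log2 fold change was -3.00, so the higher sum does not describe most of them. The 12 genes of megakaryocytes and platelets summed to 158 to 194 FPKM in the 6 libraries of the other groups and to 316 and 315 FPKM in controls. The part of these shifts in the levels of the 10 genes, or of the related genes described last, was not tested.

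Since FPKM is per length, the levels can be set against each other within a library. Over the 8 libraries the order was Smc1a (172 ± 13.3 FPKM), Rad21 (151 ± 14.7), Smc3 (115 ± 18.4), Stag2 (94.0 ± 9.54), Pds5a (87.5 ± 4.88), Nipbl (71.4 ± 6.12), Ctcf (68.4 ± 2.43), Stag1 (54.7 ± 3.91), Pds5b (37.7 ± 3.22) and Cdca5 (18.1 ± 2.03; SD, n = 8). Neighbours from Smc1a down to Ctcf overlapped over the libraries, while Stag1, Pds5b and Cdca5 were each below the gene before them in every library. Smc1a exceeded 96.7% of the tested genes in mean level and Cdca5 exceeded 60.1%.

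The ratio of another subunit to Smc3 shows whether they varied together. Rad21 over Smc3 was 1.19 ± 0.0446 in Smc3 del/+, 1.75 ± 0.233 in Flt3-ITD, 1.24 ± 0.257 in the combined group and 1.20 ± 0.00774 in controls (SD, n = 2 each). Smc1a over Smc3 was 1.35 ± 0.108 in Smc3 del/+, 1.79 ± 0.0751 in Flt3-ITD, 1.45 ± 0.0883 in the combined group and 1.48 ± 0.0357 in controls. Both ratios were highest in Flt3-ITD, and their Smc3 del/+ means were at or below those of control. All ratios to Smc3 share its level as the denominator, which was lowest in Flt3-ITD, so they partly restate it. Ctcf over Smc3 was likewise highest in Flt3-ITD, with a mean of 0.760 against 0.579 in controls. Stag1 and Stag2 together over Smc3 gave 1.13 and 1.15 in Smc3 del/+ mice, 1.65 and 1.61 in Flt3-ITD mice, 1.60 and 1.11 in the combined group, and 1.16 and 1.14 in controls. Pds5a and Pds5b together gave 0.981 and 0.964 in Smc3 del/+ mice, 1.34 and 1.36 in Flt3-ITD mice, 1.19 and 0.892 in the combined group, and 1.08 and 1.07 in controls. In each of these sums, combined replicate 1 was above both controls and combined replicate 2 below both.

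The shares within the pairs of paralogues were compared as well. Stag2 made up 62.2% and 62.2% of the summed Stag1 and Stag2 FPKM in Smc3 del/+ mice, 66.2% and 64.7% in Flt3-ITD mice, 66.2% and 60.3% in the combined group, and 61.5% and 62.0% in controls. Pds5b made up 30.3% and 31.0% of the Pds5 sum in Smc3 del/+ mice, 27.1% and 28.2% in Flt3-ITD mice, 30.0% and 36.0% in the combined group, and 29.4% and 29.3% in controls. Flt3-ITD libraries had a higher Stag2 share and a lower Pds5b share than controls, and the 2 combined libraries differed from each other by more than any other pair. These ratios are described without a test. In the table the authors normalized, the group means differed from these by less than the SD between replicates pooled over the 4 groups. The combined group adds most to that SD except for Smc1a over Smc3. A factor shared by all genes of a library cancels in such ratios, so this closeness is no check of them.

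**Figure D3:**
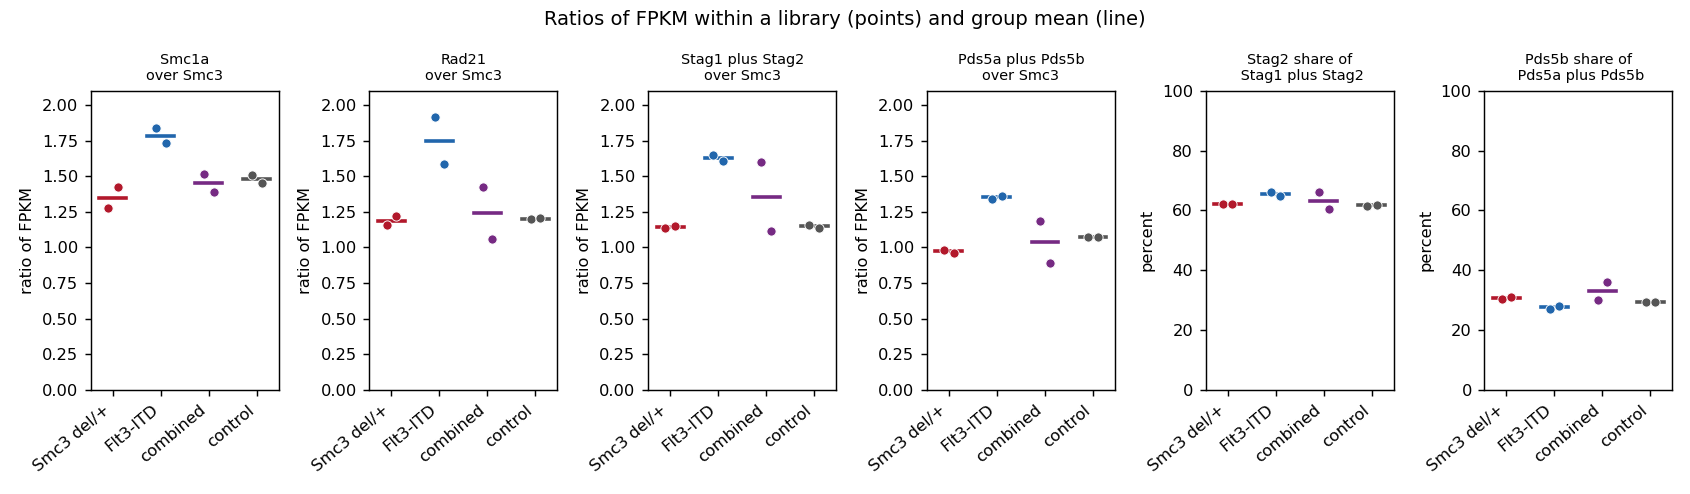
Ratios of FPKM within a library and shares in percent (points), with the group mean (line), for Smc3 del/+, Flt3-ITD, combined and control from left to right, on axes that start at 0. The 4 ratios to Smc3 are highest in Flt3-ITD, 1.79 for Smc1a and 1.75 for Rad21. The 2 combined libraries lie apart in all panels but Smc1a over Smc3, where they are at 1.52 and 1.39.

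The pattern of Smc3 was compared with all other tested genes by the root mean square (RMS) difference, over the 8 libraries, of log2(FPKM + 1) centred on each gene's mean. The 5 nearest of 10853 were Hnrnpc, a nuclear RNA-binding protein (0.0534), Nap1l1, a histone chaperone (0.0573), Psma4, a proteasome subunit (0.0664), Sf3a3, a splicing factor subunit (0.0693), and Srp54c, of the signal recognition particle (0.0719). Srp54c has near-identical copies, so its level is uncertain. The median over all genes was 0.350, and Smc3 itself deviated from its mean by 0.218. Hnrnpc had 131 and 139 FPKM in Smc3 del/+, 99.1 and 97.1 FPKM in Flt3-ITD, 103 and 139 FPKM in the combined group, and 129 and 116 FPKM in controls, with its lowest values in Flt3-ITD, as for Smc3.

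Among the other members, Pds5b ranked 231 of 10853 by this measure, Cdca5 514, Smc1a 599 and Stag1 780. Ctcf ranked 2229, Pds5a 2781, Rad21 3100, Nipbl 3667 and Stag2 3888. The ring partners of Smc3 were thus farther from it than many genes outside cohesin. By this measure a gene that varies little is close to any gene of modest range.

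**Figure D4:**
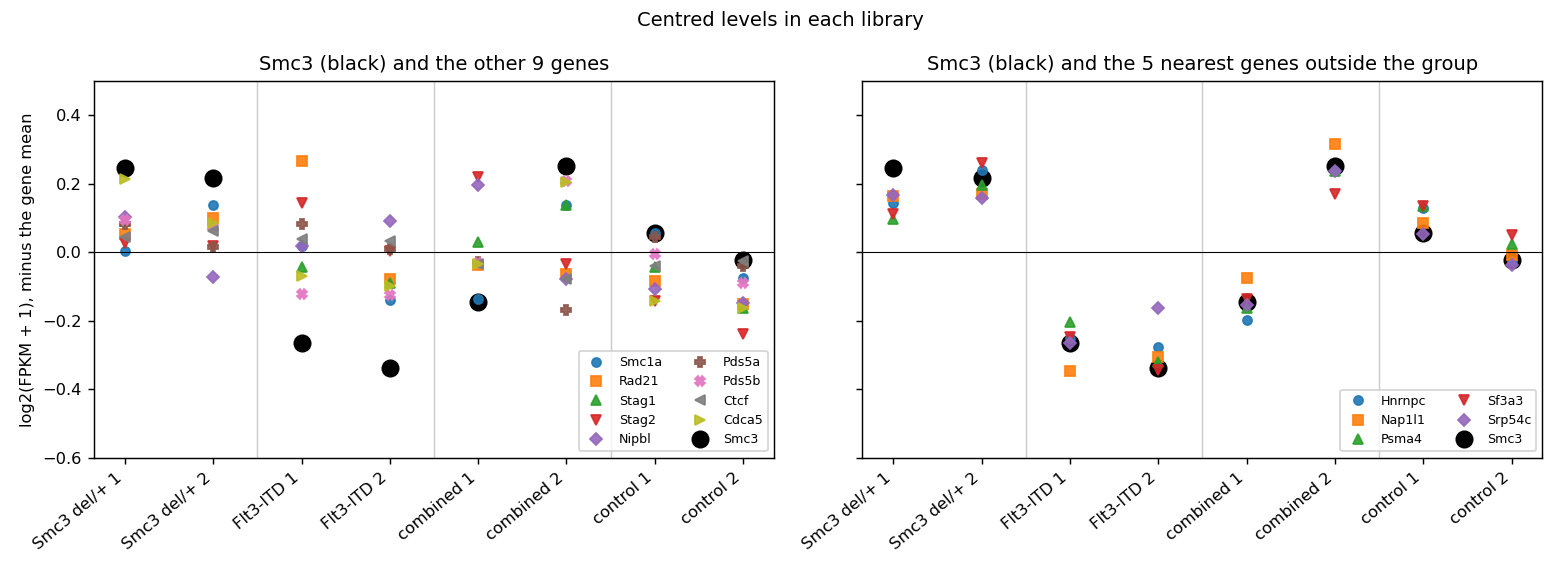
Centred log2(FPKM + 1) of Smc3 (black) in each library beside the other 9 genes (left) and the 5 nearest genes outside the group (right), with libraries of Smc3 del/+, Flt3-ITD, combined and control from left to right. Smc3 lies low in both Flt3-ITD libraries and in combined replicate 1, while Rad21 stands high in Flt3-ITD replicate 1 and Stag2 and Nipbl in combined replicate 1.

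Genes that act on cohesin were examined from lists chosen by known role. None of the lists for loading, release and acetylation (10 tested), protection and cleavage (8), meiotic cohesin (2), looping partners of Ctcf (10) or condensin and Smc5/6 (13) had a member past the threshold in Smc3 del/+ against control, in the combined group against Flt3-ITD or in the averaged effect of the deletion. Sgol2, a shugoshin that guards centromeric cohesin, came nearest in Smc3 del/+ with 53.6 and 49.8 FPKM against 37.5 and 36.7 FPKM in controls, a log2 fold change of 0.47 ± 0.15 (SE; limma adjusted p = 0.868). Median log2 fold changes there were 0.02 for loading, release and acetylation, 0.18 for protection and cleavage, 0.09 for condensin and Smc5/6 and -0.04 for looping partners.

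With Flt3-ITD, 2 of 10 genes of loading, release and acetylation fell and none rose, both against control and averaged over the Smc3 states, where 9.5% and 12.8% of all genes fell. Wapal, the symbol used here for the release factor Wapl, had 88.3 and 80.0 FPKM in Smc3 del/+, 66.2 and 61.7 FPKM in Flt3-ITD, 59.4 and 58.0 FPKM in the combined group, and 85.1 and 88.0 FPKM in controls. All 4 Flt3-ITD carriers were below all 4 other libraries, with an averaged log2 fold change of -0.47 ± 0.084 (SE; limma adjusted p = 0.00674). Dscc1, part of the clamp loader that helps to establish cohesion in S phase, had 9.25 and 10.6 FPKM in Smc3 del/+, 5.16 and 3.45 FPKM in Flt3-ITD, 4.63 and 6.69 FPKM in the combined group, and 9.88 and 8.57 FPKM in controls, an averaged fold change of -0.85 ± 0.166 (SE; limma adjusted p = 0.00921).

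Rec8, the kleisin of meiotic cohesin, was the 1 of 2 tested genes of its list that fell. Averaged over the Smc3 states, 12.8% of all genes fell. Rec8 had 2.88 and 4.18 FPKM in Smc3 del/+, 0.537 and 0.856 FPKM in Flt3-ITD, 0.513 and 0.586 FPKM in the combined group, and 5.05 and 4.56 FPKM in controls. The averaged log2 fold change was -1.66 ± 0.18 (SE; limma adjusted p = 0.00148), against a mean level far below that of Rad21. Of the other genes in this list, Stag3 was tested and did not pass, Smc1b and Ctcfl were at or below 0.0658 FPKM in every library, and Rad21l was at 0 in all. Ldb1, an adaptor that bridges enhancers and promoters in erythroid cells, was the 1 of 10 looping partners that fell, against the same 12.8% of all genes averaged over the Smc3 states. It had 58.0 and 55.3 FPKM in Smc3 del/+, 32.3 and 37.6 FPKM in Flt3-ITD, 40.8 and 32.2 FPKM in the combined group, and 71.4 and 74.9 FPKM in controls, an averaged log2 fold change of -0.84 ± 0.126 (SE; limma adjusted p = 0.00343).

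The averaged falls of Wapal, Dscc1, Rec8 and Ldb1 passed in all 17 alternative settings, whereas the calls of the single comparisons were lost without some libraries and in some other settings. In Flt3-ITD against control, the log2 fold changes were -0.43 for Wapal, -0.96 for Dscc1, -1.78 for Rec8 and -1.05 for Ldb1 (limma adjusted p of 0.0439, 0.0315, 0.00489 and 0.00557). Wapal and Dscc1 lost their call there without any single library of Smc3 del/+, Flt3-ITD or control (limma adjusted p from 0.0936 to 0.219 and from 0.0701 to 0.199). Ldb1 did so without control replicate 1 (0.0586), control replicate 2 (0.0612) or Flt3-ITD replicate 1 (0.0531), and Rec8 without control replicate 1 (limma adjusted p = 0.0592). The call of Wapal was also lost with equal medians (0.0597), with the replicate block (0.0655) and without a variance trend (0.0812), and that of Dscc1 without a filter (limma adjusted p = 0.0629). In the combined group against control, where 6.38% of all genes fell, Wapal, Rec8 and Ldb1 had fold changes of -0.55, -1.90 and -0.99 (limma adjusted p = 0.0274, 0.00639 and 0.00946). These 3 calls were each lost without control replicate 1 and without control replicate 2, and that of Wapal also without Smc3 del/+ replicate 1 or 2 (limma adjusted p from 0.0599 to 0.184). With only the 2 groups compared, the 3 were lost as well (limma adjusted p = 0.151 for Wapal, 0.0640 for Rec8 and 0.0911 for Ldb1). With array weights Wapal (0.140) and Rec8 (0.0541) were lost, and without a variance trend Wapal (limma adjusted p = 0.0539). Dscc1, at -0.63, passed in the combined group only without combined replicate 2 among the libraries left out (-0.86, limma adjusted p = 0.0296).

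**Figure D5:**
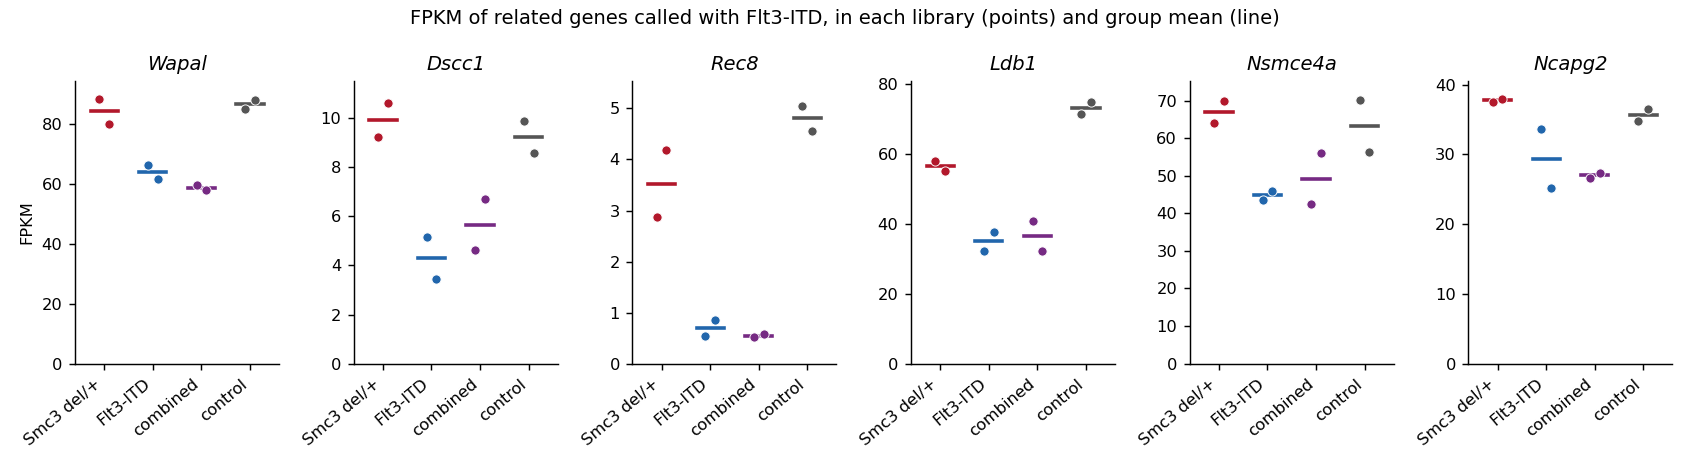
FPKM of 6 genes that act with cohesin or in related complexes and fell with Flt3-ITD averaged over the Smc3 states, in each library (points) with the group mean (line), for Smc3 del/+, Flt3-ITD, combined and control from left to right. Wapal is at 58.0 to 66.2 FPKM in the 4 Flt3-ITD carriers and at 80.0 to 88.3 FPKM in the others.

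In the related complexes, 2 of 13 genes of condensin and Smc5/6 fell in the averaged effect of Flt3-ITD and none rose, against 12.8% of all genes that fell. Nsmce4a, a subunit of Smc5/6, had 63.9 and 69.8 FPKM in Smc3 del/+, 43.6 and 46.0 FPKM in Flt3-ITD, 42.5 and 55.9 FPKM in the combined group, and 70.2 and 56.4 FPKM in controls (averaged log2 fold change -0.46 ± 0.118 SE, limma adjusted p = 0.0233). Ncapg2, of condensin II, had 37.6 and 37.9 FPKM in Smc3 del/+, 33.6 and 25.1 FPKM in Flt3-ITD, 26.6 and 27.4 FPKM in the combined group, and 34.7 and 36.5 FPKM in controls (-0.38 ± 0.112 SE, limma adjusted p = 0.0413). For both genes the groups with Flt3-ITD did not overlap with the others. They passed in 13 and 7 of 17 alternatives; Nsmce4a was lost without control replicate 1 (limma adjusted p = 0.0825), Smc3 del/+ replicate 2 (0.0761) or either Flt3-ITD library (0.0687 and 0.0619), and Ncapg2 without any single library other than combined replicate 2 or Flt3-ITD replicate 1 (limma adjusted p from 0.0804 to 0.125). Ncapg2 was also lost without a filter, with equal medians, with the replicate block and without a variance trend (limma adjusted p from 0.0504 to 0.0617). In the protection and cleavage list, 0 of 8 passed with Flt3-ITD in any comparison. Of all genes, 18% passed in Flt3-ITD against control, 11.8% in the combined group against control and 23.8% in the averaged effect.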

How the data were processed

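Per the labels' protocols, cDNA libraries were made from Trizol-isolated RNA with a directional kit. The authors deposited FPKM values in 2 tables of 23385 rows, of which 92 are spike-in RNAs. Per the submitters' processing notes, the mm9 build, Cufflinks 2.0.0 and TopHat were used. The sources used here do not say which step each tool served, which annotation was counted or whether strand was used. The deposited FPKM of the first table were used as they stand. Those of the second, rescaled by the authors with spike-in totals nearer each other, were an alternative. FPKM tables hold no read counts, so the depth in reads is unknown.

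The 10854 mouse genes whose mean reached 1 FPKM were fitted on the scale of log2(FPKM + 1) in R 4.3.3, using limma 3.58.1 with its variance trend, and p-values were adjusted over all of them by Benjamini-Hochberg at a threshold of 0.05. One fit of 4 group means gave the single comparisons and the interaction, and an additive model gave the averaged effects. Fold changes on this scale understate changes of low genes. With 2 libraries against 2, an exact permutation test cannot go below p = 0.333, so calls rest on the spread shared across genes and groups. The scripts were tested on simulated data. The members, the gene lists and the tests were chosen with earlier results of these data known. Named genes were all 10 members, those of the 4 cohesin lists past the threshold (or else nearest to it), the 2 with the smallest p of other lists, and the 5 nearest to Smc3 in pattern. The motif letters were chosen after the promoter sequences were seen.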

Additional observations from a re-analysis of the deposited data

Results flagged for a closer look

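In the unnormalized FPKM, Rad21 moved in opposite directions with Flt3-ITD in the presence and the absence of the labelled Smc3 deletion. Only the members were searched for such reversals without overlap, and their share over all tested genes was not counted. Both combined libraries (147 and 144 FPKM) were below both Smc3 del/+ libraries (156 and 162 FPKM), whereas both Flt3-ITD libraries (181 and 143 FPKM) were above both controls (142 and 135 FPKM). The difference of the effects was -0.34 ± 0.203 on the log2 scale (SE; limma adjusted p = 0.643), which did not pass. Flt3-ITD replicate 2 exceeded control replicate 1 by less than 1 FPKM, and the difference was -0.17 without Flt3-ITD replicate 1 and -0.51 without Flt3-ITD replicate 2. In the normalized table it was -0.17, and Rad21 was lower with Flt3-ITD in both Smc3 states, at 129 and 108 FPKM in the combined group against 171 and 156 FPKM in Smc3 del/+, and at 165 and 132 FPKM in Flt3-ITD against 168 and 195 FPKM in controls.

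In the unnormalized FPKM, Ctcf did the same in both contrasts. With the labelled deletion its libraries were lower in Flt3-ITD mice (66.8 and 64.8 FPKM in the combined group against 70.3 and 69.9 FPKM in Flt3-ITD) and higher in the others (70.6 and 71.5 FPKM in Smc3 del/+ against 66.4 and 67.2 FPKM in controls). With Flt3-ITD they were lower among deletion-labelled mice and higher among the others. The difference was -0.18 ± 0.156 in either reading (SE; limma adjusted p = 0.752), which did not pass. With equal spike-in totals it turned to 0.03, and in the normalized table it was -0.0072. Ctcf in the normalized table was lower with the deletion in both Flt3 states and lower with Flt3-ITD in both Smc3 states, at 58.6 and 48.1 FPKM in the combined group, 64.1 and 64.6 FPKM in Flt3-ITD, 76.8 and 69.6 FPKM in Smc3 del/+ and 80.0 and 97.0 FPKM in controls. Both differences set the 4 libraries with high Xist against the 4 with low Xist, so genotype and sex cannot be told apart in them.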

How the results depend on the processing

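Over 7 comparisons, the count of members called stayed at 0 in every alternative for Smc3 del/+ against control, the interaction and the averaged deletion. In the authors' normalized table the members called numbered 4 in Flt3-ITD against control, 7 in combined against control and 8 in the averaged effect of Flt3-ITD. With equal spike-in totals they numbered 3, 6 and 7. All of them were negative where the median of all genes was also negative. The shares of all tested genes called lower were 43.2%, 53.1% and 43.8% in the normalized table. They were 31%, 43.6% and 38.1% with equal spike-in totals, in the same order. With array weights 1 and 2 were called in the first and the last, and with only the 2 groups compared 1 in the first. Leaving out 1 library gave 0 to 1 members in Flt3-ITD against control, in combined against Flt3-ITD and in combined against control, and 0 to 2 in the averaged effect of Flt3-ITD, the counts above 0 coming without combined replicate 1 or combined replicate 2.

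Values above 0 in the main table that passed as negative in the normalized table were Stag1 in Flt3-ITD against control (-0.48), Smc3 (-0.65), Smc1a (-0.66), Rad21 (-0.61), Stag1 (-0.52) and Pds5b (-0.57) in combined against control, and Rad21 (-0.38), Stag1 (-0.42) and Cdca5 (-0.44) in the averaged effect of Flt3-ITD. With equal spike-in totals they were Smc3 (-0.67), Smc1a (-0.69), Rad21 (-0.64) and Pds5b (-0.56) in combined against control, and Rad21 (-0.40) and Stag1 (-0.42) averaged over Smc3 states. Both scalings shift all genes.

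Of all genes, 1 was called in Smc3 del/+ against control, and 3 with a pseudocount of 0.1, without a filter or without a variance trend, 12 and 15 with the normalized table and spike-in totals, 132 with array weights, 22 with 2 groups and 1 to 12 with 1 library left out (12 without combined replicate 1 or 2). The 1955 in Flt3-ITD against control became 4874, 3466, 3955, 3603 and, with 1 library left out, 243 (control replicate 1) to 4235 (combined replicate 2). The 31 in combined against Flt3-ITD became 5 with the lower pseudocount, 9 without a filter, 2 with array weights and with 2 groups, and 3 (either control) to 3248 (combined replicate 1) with 1 library left out. The 1279 in combined against control became 5981, 4846, 267, 41 and 83 (without control replicate 2) to 3427 (without combined replicate 2). The 4 of the interaction became 2 without a filter, 19, 30, 7 without a trend and 4 to 2036 (without combined replicate 1). The 0 of the averaged deletion became 3, 2, 17 with array weights, 1 with a term for the Xist pattern and 0 to 1. The 2581 of averaged Flt3-ITD became 5053, 4369, 4932 and 1208 (without control replicate 1) to 4703 (without combined replicate 2). The cause was not tested.

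In the combined group the ratios ranged, with 1 library left out, from 1.06 to 1.42 for Rad21, 1.11 to 1.60 for the Stag sum and 0.892 to 1.19 for the Pds5 sum over Smc3, from 60.3% to 66.2% for the Stag2 share and from 30.0% to 36.0% for the Pds5b share.

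Replicate numbers recur across groups, but deviations of same-numbered libraries correlated at -0.113 to 0.0229. Such values show no strong effect shared by same-numbered libraries, but they cannot settle whether the mice were matched. With the replicate block, 0 members were called in any comparison, and all genes called numbered 1714 in Flt3-ITD against control, 3 in combined against Flt3-ITD and 1 in the averaged deletion. A crossed block for combined against control, chosen after seeing the data, called 974 genes, against 1012 with the block as numbered, and 0 members with either.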
